A study of Homo sapiens with 2 samples.

Results

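The mitochondrial ribosomal protein genes encode the protein parts of the ribosome that works inside mitochondria. They were taken here as every gene of the deposited array table whose annotated symbol begins with MRPL or MRPS, followed by a number and, in some, a letter A to C. This gave 73 genes of the 14812 in the table, 50 for proteins of the large subunit and 23 for proteins of the small subunit. MCF-10A, a non-tumorigenic human mammary epithelial cell line, was made to stably express either a fusion of EGFP with the GTPase-activating protein ARHGAP4 (the EGFP-ARHGAP4 sample) or EGFP from the vector alone (the EGFP vector sample). Both samples thus carry EGFP, and they differ by the ARHGAP4 part of the fusion. The labels give no promoter, clone or passage. RNA of each was hybridised to 1 Affymetrix whole-transcript array, so there are no replicates and no p-value or error between cultures can be given for any difference.

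The mitochondrial ribosome translates the few messages encoded by mitochondrial DNA, all of them for subunits of the respiratory chain and ATP synthase. Its RNA comes from mitochondrial DNA, but all of its proteins are encoded in the nucleus, made in the cytosol and imported. Some of the proteins have a counterpart in the bacterial ribosome, while others exist only in mitochondria, and loss of several of them causes combined deficiencies of oxidative phosphorylation in patients.

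The members differed little between the samples. Values are log2 expression values, and a difference is the value in the EGFP-ARHGAP4 array minus that in the EGFP vector array. A difference in bulk RNA cannot be told apart from a shift in the kinds of cells in the culture. A gene passed the level filter when the higher of its 2 values reached 4.02, the median of all gene values, which 71 members did. Their median difference was -0.11 (quartiles -0.22 and 0.04), against -0.10 (quartiles -0.29 and 0.12) for all 7685 genes past the filter. Of the 71, 51 were below 0, where 61.4% of all genes past the filter were. After centring, the member median was -0.006, after quantile normalization -0.009, and after removal of the level trend by loess 0.001, so it had no direction of its own apart from the bulk of the genes. A difference of at least 0.5 (1.41-fold) was found for 3 members, MRPS16 above and MRPL48 and MRPS5 below. That is 1.41% of the members higher and 2.82% lower, against 5.15% and 9.81% of all genes past the filter. No member reached 1 (2-fold) in either direction, against 1.80% of all genes past the filter.

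The interquartile range of their differences was 0.25, against 0.41 for all genes past the filter. A second background, chosen after the values were seen, was the 4488 genes whose mean level lay between 5.15 and 8.15, the 10th and 90th percentile of the members. Their interquartile range was 0.39, and 14.3% of them differed by at least 0.5 either way, against 4.23% of the members. Several related lists were as narrow or narrower, with an interquartile range of 0.24 for the cytosolic ribosomal proteins, 0.22 for the assembly factors, 0.18 for the measured respiratory chain genes and 0.15 for the translation factors, while it was 0.35 for the genes of mitochondrial DNA and RNA. Of the cytosolic ribosomal protein genes, 4.65% differed by at least 0.5. With 1 array per sample these ranges and shares describe the 2 arrays and were not tested. Within the members, the difference did not follow the level (Pearson's r = 0.02 across 71 genes, which share the same 2 arrays and are not replicates).

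**Figure D1:**
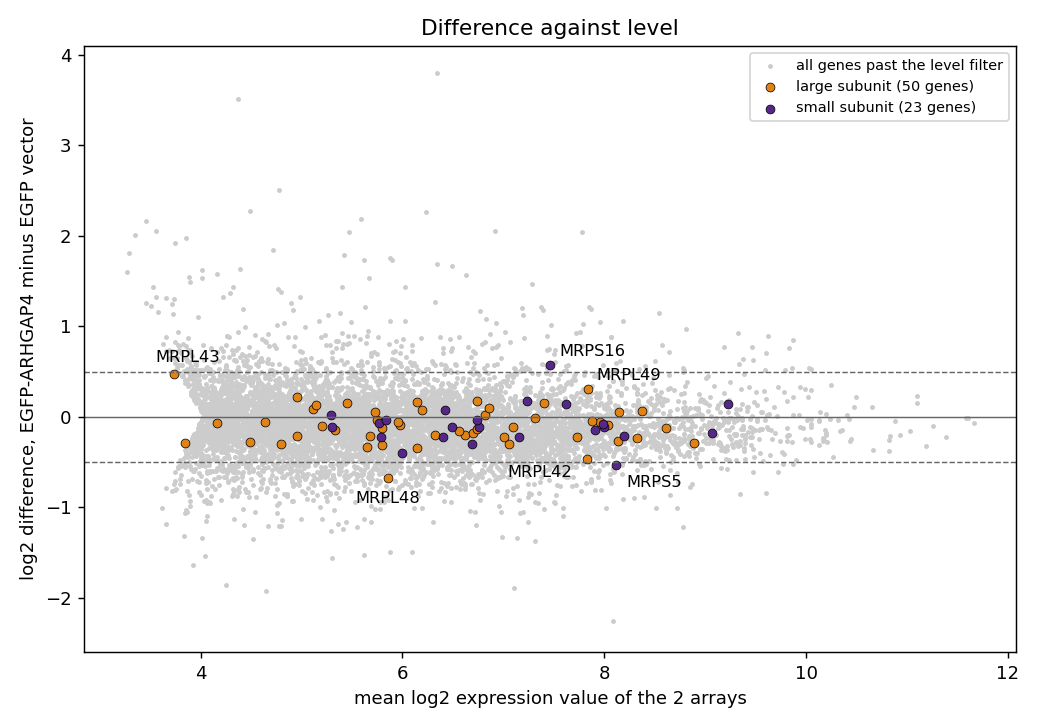
Log2 difference (EGFP-ARHGAP4 minus EGFP vector) against mean log2 expression value for all 7685 genes past the level filter (grey), large subunit genes (orange) and small subunit genes (purple), 1 array per sample. Dashed lines mark -0.5 and 0.5. The members form a narrow band, from which MRPS16 stands out above and MRPL48 and MRPS5 below.

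The 2 samples can be set against their labels and cell type in brief. ARHGAP4 stood at 6.68 in the EGFP-ARHGAP4 array and at 4.49 in the EGFP vector array. Of 20 listed markers of mammary epithelium 12 were measured, among them SFN at 10.4 in both arrays and KRT5 at 8.34 in the EGFP-ARHGAP4 array and 8.33 in the EGFP vector array. KRT14 stood at 6.96 in the EGFP-ARHGAP4 array, against 9.21 in the EGFP vector array. Differences the other way were found for EPCAM, with 7.79 in the EGFP-ARHGAP4 array and 6.58 in the EGFP vector array, CLDN7 at 1.22 and CLDN1 at 0.97. Of the 12, 10 were above 0, and the median difference of the 12 was 0.27. KRT14 and DSP, the latter at -0.26, were below 0. PKP1 and KRT19 lay below the level filter in both arrays. The 10 markers past it had a median of 0.18, with 8 above 0. The measured markers of fibroblasts, 3 of 8, lay below the level filter in both arrays, and so did 2 of the 3 measured endothelial markers and 1 of the 3 immune ones. CLDN5, CD14 and CD68, the others, were above it. Their part in the differences of the members was not tested. Across the 44629 features the arrays had a median of 2.88 each.

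Many promoters of the members hold short sequence motifs that the choice by symbol did not use. Of the 73 members, 65 have a promoter in the RefSeq table of GRCh38.p14, which gives 250 bases before and 50 bases after each annotated start. CCGGAAG, the core bound by ETS factors such as GABP, a regulator of nuclear genes for mitochondria, was found on either strand in 29 of 65, or 44.6%, against 22.9% of 6049 other genes past the level filter and 12.2% of all 27305 genes with a promoter. AAGATGGC, a core bound by YY1, was found in 20 of 65, or 30.8%, against 6.74% and 3.52%. Of the 23 matches to AAGATGGC over all windows, 15 began at or after the annotated start. In this count of matches, a site in overlapping windows of 1 gene was counted in each. CGCATGCG, the palindromic core of the motif of NRF1, another regulator of such genes, was found in 2 of 65, MRPL17 and MRPL22, or 3.08%, against 4.84% and 2.46%. The core was chosen after a longer form, with a G before it and a C after it, had been found in 1 of 65, or 1.54%, against 2.98% and 1.52%. A gene with several annotated starts was counted once if any of its windows held the motif, and none of the 3 motifs contains another. At least 1 of the 3 was found in 42 of 65 members. The promoters of the members held a median of 19 CG pairs, against 11 over all promoters, whether or not the gene passed the level filter. The ETS and NRF1 cores hold such pairs, and the part of this in their shares was not tested. The 120 bases before the start are shown 5′ to 3′ for the 2 members on chromosome 10, for MRPL48, the lowest member, and for MRPL17 and MRPL52, which hold the NRF1 and YY1 motifs. Capitals mark the motifs.
MRPS16: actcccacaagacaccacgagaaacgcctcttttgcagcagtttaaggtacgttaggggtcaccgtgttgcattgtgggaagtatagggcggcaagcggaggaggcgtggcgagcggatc
MRPL43: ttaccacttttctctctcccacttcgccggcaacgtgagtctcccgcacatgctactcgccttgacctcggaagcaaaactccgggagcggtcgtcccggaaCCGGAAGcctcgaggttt
MRPL48: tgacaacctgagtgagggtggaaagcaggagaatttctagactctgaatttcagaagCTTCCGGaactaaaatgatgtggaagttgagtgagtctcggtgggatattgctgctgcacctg
MRPL17: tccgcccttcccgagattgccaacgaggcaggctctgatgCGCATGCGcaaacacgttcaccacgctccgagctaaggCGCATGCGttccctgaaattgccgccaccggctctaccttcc
MRPL52: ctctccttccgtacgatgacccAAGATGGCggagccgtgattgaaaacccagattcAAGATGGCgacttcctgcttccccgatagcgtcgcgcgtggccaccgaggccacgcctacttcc
These stretches are chr10:73252645-73252764 (minus strand), chr10:100987498-100987617 (minus strand), chr11:73787754-73787873 (plus strand), chr11:6683341-6683460 (minus strand) and chr14:22829767-22829886 (plus strand), all from RefSeq on GRCh38.p14.

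In MRPL43 the ETS core begins 18 bases before the start and in MRPL48, on the opposite strand, 63 bases before it. MRPL52 holds the YY1 core 98 and 64 bases before the start, and an ETS core that spans the start and is not in capitals. MRPS16 has no match in the stretch shown, and its ETS core lies 5 bases after the start. The ETS core thus stood in both the highest and the lowest member. Members past the filter with an ETS core had a median difference of -0.06 over 28 genes, against -0.13 over 36 without one. With a YY1 core the median was -0.07 over 20 genes, against -0.11 over 44 without. MRPL17, with NRF1 cores 80 and 42 bases before the start, had 6.68 in the EGFP-ARHGAP4 array and 6.80 in the EGFP vector array. These are descriptions of letters in a window and of 2 arrays, not of binding.

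Among the small subunit proteins the 23 members had a median of -0.11, with 17 below 0. That is 73.9%, against 61.4% of all genes past the filter. After centring 13 of the 23 were below 0, and after loess 10. MRPS16, a counterpart of the bacterial protein S16 in the body of the subunit, was the highest of all members. It stood at 7.76 in the EGFP-ARHGAP4 array, against 7.18 in the EGFP vector array, 1.49-fold higher. The value is the mean of 2 features, which differed by 0.60 and 0.56. The RefSeq gene table names 3 pseudogenes of MRPS16, whose RNA its features could share.

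MRPS5, a counterpart of bacterial S5, which lies at the mRNA entrance, was the lowest of the small subunit. It stood at 7.85 in the EGFP-ARHGAP4 array and 8.38 in the EGFP vector array, 1.45-fold lower. MRPS28, which is related to the bacterial protein S1, stood at 5.80 in the EGFP-ARHGAP4 array and 6.20 in the EGFP vector array. MRPS22, a small subunit protein found only in mitochondria, was at 6.54 in the EGFP-ARHGAP4 array and 6.84 in the EGFP vector array. After MRPS5 these were the lowest of the small subunit, at -0.40 and -0.29.

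Further body proteins with bacterial counterparts followed MRPS16 on the high side. MRPS12, the counterpart of the decoding centre protein S12, had 7.32 in the EGFP-ARHGAP4 array and 7.15 in the EGFP vector array. MRPS17 had 7.69 in the EGFP-ARHGAP4 array and 7.55 in the EGFP vector array. MRPS21 had 9.30 in the EGFP-ARHGAP4 array and 9.16 in the EGFP vector array. These 3 differences lay between 0.14 and 0.17, less than the interquartile range of the members. The 7 proteins of the subunit's head (MRPS7, MRPS9, MRPS10, MRPS14, MRPS31, MRPS33 and MRPS35) lay within -0.22 and 0.02, and their median was -0.11 as deposited, -0.006 after centring, 0 after quantile normalization and 0.03 after loess.

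The small subunit proteins without a bacterial counterpart had a median of -0.14 over 9 genes, with 8 below 0, or 88.9%. Those with a counterpart had a median of -0.09 over 14 genes, with 9 below 0, or 64.3%. All genes past the filter had a median of -0.10, with 61.4% below 0. The split within the small subunit was not rescaled. Over both subunits the same split gave -0.12 for 28 mitochondrion-specific members past the filter and -0.11 for 43 with a counterpart. After centring these became -0.02 and -0.006, and after loess -0.002 and 0.03, so the sign for members with a counterpart depended on the scaling. MRPS28 was placed with the bacterial counterparts after the values were seen, and with it among the mitochondrion-specific proteins the small subunit medians were -0.18 over 10 genes and -0.08 over 13. The 5 members with the highest value in the EGFP-ARHGAP4 array were MRPS21, MRPS15, MRPL3, MRPL37 and MRPL2. MRPS15, the counterpart of bacterial S15, had 8.98 in the EGFP-ARHGAP4 array and 9.15 in the EGFP vector array. MRPL37 differed by -0.12 (0.001 after loess) and MRPL2 by 0.06.

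**Figure D2:**
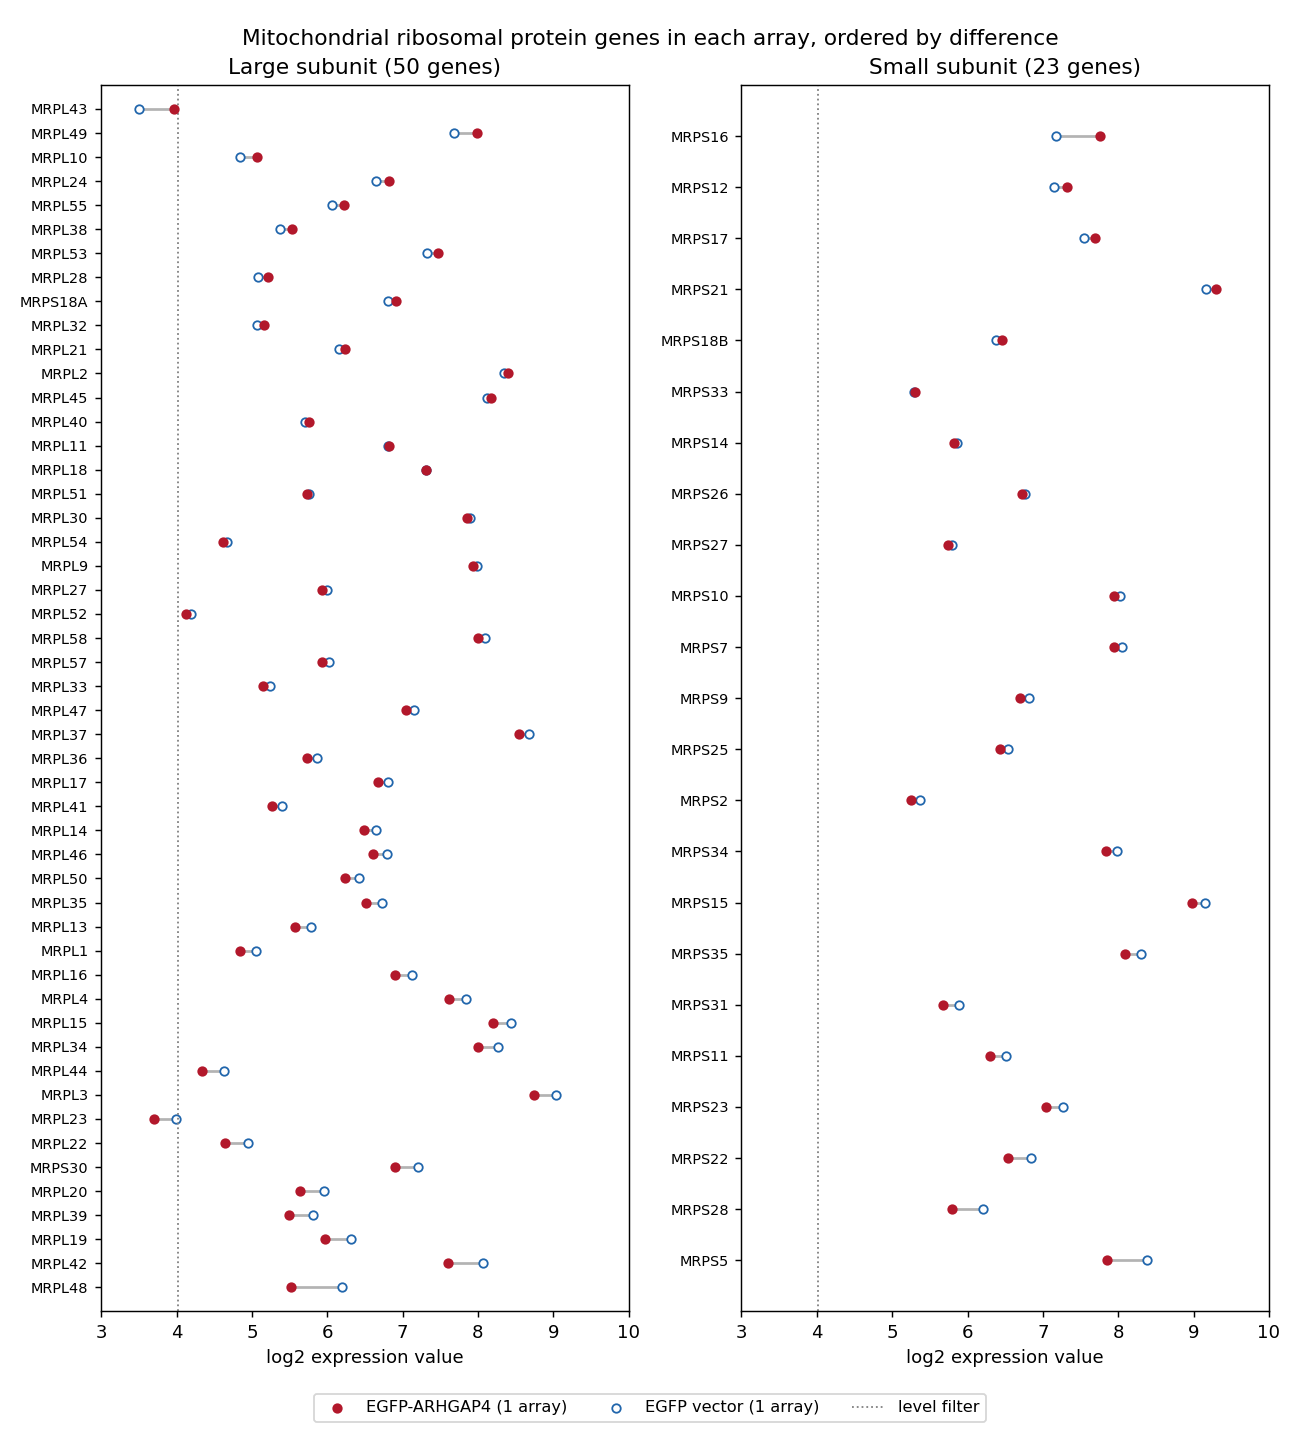
Log2 expression value of all 73 members in the EGFP-ARHGAP4 array (filled red) and the EGFP vector array (open blue), joined by a line, by subunit and ordered by difference, with the largest positive difference at the top. The dotted line is the level filter at 4.02. For 62 of the 73 members the points lie within 0.3 of each other. Positions along the axis do not order transcript amounts between genes, since each feature has its own response.

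The large subunit members had a median of -0.10 over 48 genes past the filter, with 34 below 0. That is 70.8%, against 61.4% of all genes past the filter. After centring 24 of the 48 were below 0, and after loess 25. MRPL48, a mitochondrion-specific protein of the central protuberance, the knob that faces the small subunit, was the lowest of all members. It had 5.52 in the EGFP-ARHGAP4 array and 6.19 in the EGFP vector array, 1.59-fold lower. The other 8 measured proteins assigned to the protuberance lay between -0.18 (MRPL46) and 0.17 (MRPL55), all above MRPL48. MRPL38, also there, was at 5.53 in the EGFP-ARHGAP4 array and 5.37 in the EGFP vector array. MRPL58, which can release stalled chains as a peptidyl-tRNA hydrolase, differed by -0.09.

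MRPL42, a large subunit protein of mitochondria only, was the second lowest of the subunit. It stood at 7.60 in the EGFP-ARHGAP4 array and 8.06 in the EGFP vector array, a difference of -0.46, and has 6 named pseudogenes. MRPL19, MRPL39, MRPL20, MRPS30 and MRPL22 followed, between -0.34 and -0.30. MRPS30 belongs to the large subunit in spite of its name. MRPL3, a counterpart of the bacterial protein L3 near the peptidyl transferase centre, had 8.75 in the EGFP-ARHGAP4 array and 9.03 in the EGFP vector array.

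On the high side of the large subunit was MRPL49, specific to mitochondria. It had 7.99 in the EGFP-ARHGAP4 array and 7.68 in the EGFP vector array, 1.24-fold higher. MRPL43, another mitochondrion-specific protein, had 3.97 in the EGFP-ARHGAP4 array and 3.50 in the EGFP vector array. Its difference of 0.47 was second to that of MRPS16, but both values lie below the level filter. MRPL23, a tunnel exit protein, was the other member below it, at 3.70 in the EGFP-ARHGAP4 array and 3.99 in the EGFP vector array.

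Translation factors dock at the stalk and the GTPase centre, of which 3 members were measured. MRPL10, the base of the flexible stalk, had 5.07 in the EGFP-ARHGAP4 array and 4.84 in the EGFP vector array. MRPL53, which lies by the stalk, had 7.48 in the EGFP-ARHGAP4 array and 7.32 in the EGFP vector array. MRPL11, of the GTPase centre, had 6.83 in the EGFP-ARHGAP4 array and 6.80 in the EGFP vector array. All 3 were above 0, with a median of 0.15 as deposited. Centring raises every gene by the same amount, since the median of all genes past the filter was -0.10. Quantile normalization and loess raised these genes too. That they stayed above 0 under these scalings is thus no separate support, and 3 genes of 1 comparison carry no error. Around the exit of the tunnel for the growing chain, 7 members past the filter had a median of -0.11, which became -0.006 after centring, 0.01 after quantile normalization and 0.03 after loess. They ran from MRPL22 at -0.30 to MRPL24 at 0.17, and MRPL45, which holds the ribosome at the inner membrane, was at 0.05.

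Of the 73 members, 69 rest on 1 feature. The 7 features of MRPS18B hold the same pair of values, 6.46 in the EGFP-ARHGAP4 array and 6.38 in the EGFP vector array, and so count as 1 measurement. MRPS18A, its paralog in the large subunit, had 6.91 in the EGFP-ARHGAP4 array and 6.81 in the EGFP vector array. The 2 features of MRPL44, whose protein has a ribonuclease III fold, sat at very different levels. One had 6.93 in the EGFP-ARHGAP4 array and 7.29 in the EGFP vector array, the other 1.76 in the EGFP-ARHGAP4 array and 1.96 in the EGFP vector array. The 2 features of MRPS2 differed by -0.17 and -0.06. In all, 38 members have at least 1 pseudogene named after them in the RefSeq table, 90 pseudogenes together.

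The members lie on 21 chromosomes, and their differences were partly ordered like those of the genes around them. MRPS16 and MRPL43, the 2 members with the highest difference, are also the only 2 on chromosome 10, where both lie on the long arm. The 235 genes past the filter on that arm had a median of 0.27, and 36 of them were higher than MRPS16. For each member up to 10 nearest named genes past the level filter on each side, other members left out, gave a median difference of the neighbourhood. For 4 members there were 13 to 18 neighbours in place of 20. It was 0.37 for MRPS16, with 19 of 20 neighbours above 0, and 0.27 for MRPL43, with 18 of 20 above 0. These were the highest neighbourhood medians of all 73 members. TWNK, the mitochondrial DNA helicase gene next to MRPL43, stood at 7.30 in the EGFP-ARHGAP4 array and 6.64 in the EGFP vector array, 1.58-fold higher.

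Away from chromosome 10 the same ordering was seen with smaller values. Across the 71 members past the filter, Pearson's r between the difference of a member and the median of its neighbours was 0.53 and Spearman's rank correlation 0.47. Without MRPS16 they were 0.44 and 0.45 across 70. Over all 7685 genes past the filter, Pearson's r with the neighbours was 0.35, or 0.27 without chromosome 10. These are correlations across genes of the same 2 arrays, some with neighbours in common. The 11 members whose neighbours had a median of -0.2 or less were all below 0, with a median of -0.29. The 47 members whose neighbours had a median above -0.2 and below 0 had a median of -0.11, with 35 below 0 and 12 above. The 13 members whose neighbours had a median of 0 or more had a median of 0.14, with 8 above 0. These 13 include MRPS16 of chromosome 10, the highest of them. These bounds were chosen after the values were seen. MRPL42 lay among neighbours with a median of -0.33, of which 19 of 20 were below 0, and MRPL49 among neighbours with a median of 0.12. MRPS5 and MRPL48 lay further below 0 than the medians of their neighbours, -0.03 and -0.18. The lowest neighbour of MRPS5, at -0.70, was lower than MRPS5 itself. What the shared regional differences come from was not tested.

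**Figure D3:**
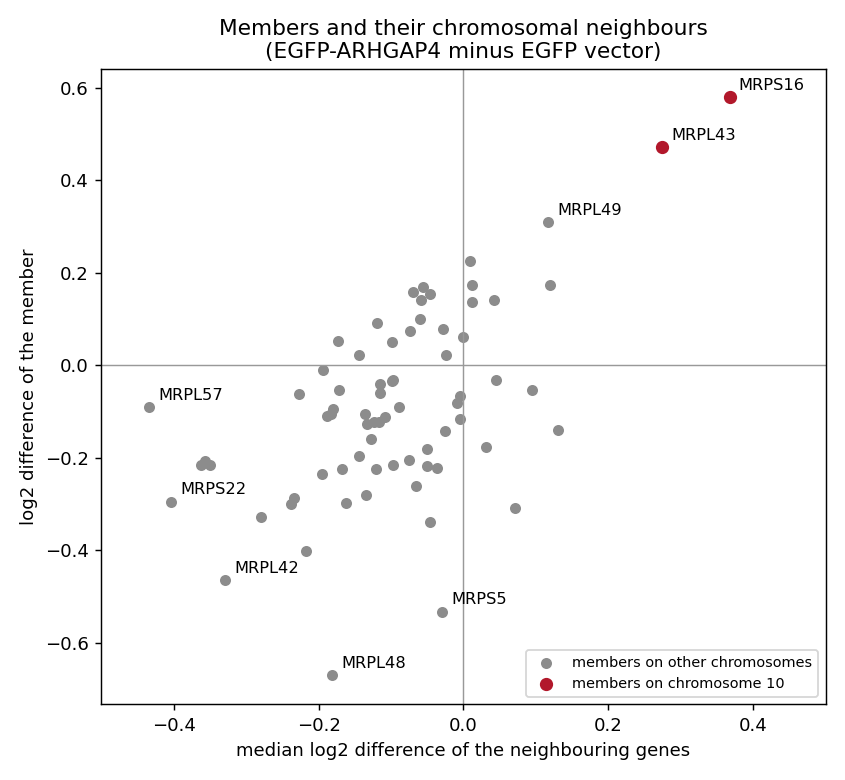
Log2 difference of each member (EGFP-ARHGAP4 minus EGFP vector) against the median difference of its neighbouring genes, up to 10 past the level filter on each side, for the 71 members past the filter and MRPL43. MRPS16 and MRPL43 on chromosome 10 (red) lie at the upper right, while MRPS5 and MRPL48 lie well below the median of their neighbours.

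Other proteins of the mitochondrial ribosome carry other names, and 3 of 5 listed were measured. DAP3, a GTP-binding protein of the small subunit head, had 6.95 in the EGFP-ARHGAP4 array and 6.78 in the EGFP vector array. CHCHD1, also of the small subunit and encoded on chromosome 10, had 5.50 in the EGFP-ARHGAP4 array and 5.22 in the EGFP vector array. PTCD3, a pentatricopeptide repeat protein, had 6.37 in the EGFP-ARHGAP4 array and 6.45 in the EGFP vector array. None of the 3 differed by 0.5.

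Of 31 listed assembly factors and enzymes that modify mitochondrial ribosomal RNA, 26 were measured, all past the filter. Their median was -0.08, or 0.01 after quantile normalization. Of the 26, 1 was lower by 0.5 or more and 2 were higher. Those are 3.85% and 7.69%, against 9.81% and 5.15% of all genes past the filter. YBEY, an endoribonuclease tied to the small subunit, was at 5.34 in the EGFP-ARHGAP4 array and 4.75 in the EGFP vector array. MTG1, a GTPase for assembly of the large subunit that is encoded on the long arm of chromosome 10, was at 5.85 in the EGFP-ARHGAP4 array and 5.33 in the EGFP vector array. TRMT2B, a methyltransferase for mitochondrial RNA, was at 6.35 in the EGFP-ARHGAP4 array and 6.95 in the EGFP vector array, and METTL17 followed at -0.40.

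Factors that run translation on the mitochondrial ribosome had a median of -0.19 over 11 measured of 15 listed. Of the 11, 9 were below 0, or 81.8%, against 61.4% of all genes past the filter. The median stayed below 0 under all 3 scalings, at -0.10 after quantile normalization, -0.09 after centring and -0.07 after loess. MTRF1, of the release factor family, had 4.93 in the EGFP-ARHGAP4 array and 5.57 in the EGFP vector array, the lowest of the list. The initiation factor gene MTIF3 was at -0.33. MRRF, the ribosome recycling factor, was at 0.23 and OXA1L, the insertase that receives new chains at the inner membrane, at 0.09. Of 12 listed regulators of mitochondrial genes 6 were measured, and none differed by 0.5. NRF1, a transcription factor of many nuclear genes for mitochondria, was at -0.29 and YY1 at -0.21, while ATF4 and ESRRA were at 0.08 and 0.07.

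Genes that keep and process mitochondrial DNA and RNA included the only 2-fold difference of these lists, that of MTPAP. Of 25 listed, 16 were measured and 14 passed the filter, with a median of -0.21, 3 lower by 0.5 or more and 1 higher, or 21.4% and 7.14%, against 9.81% and 5.15% of all genes past the filter. The median was -0.11 after quantile normalization or centring and -0.08 after loess, each with 2 lower in place of 3. MTPAP, the mitochondrial poly(A) polymerase, had 6.45 in the EGFP-ARHGAP4 array and 7.50 in the EGFP vector array, 2.07-fold lower. It is encoded on the short arm of chromosome 10, where the 72 genes past the filter had a median of -0.82. FASTKD3, an RNA-binding regulator of mitochondrial messages, had 4.05 in the EGFP-ARHGAP4 array and 4.84 in the EGFP vector array. TWNK was the highest of the list, followed by FASTK, of the same family as FASTKD3, at 0.09. Over these lists and the respiratory chain, the 4 genes on the long arm of chromosome 10 past the filter (TWNK, ATP5MK, MTG1 and CHCHD1) were all above 0, between 0.29 and 0.66, against a median of -0.08 for the 72 genes on other chromosomes. The chromosome 10 genes MTPAP, CHCHD1 and ATP5MK were grouped in this way after their values were seen.

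The measured respiratory chain genes and the ribosome of the cytosol had medians above 0. Of 83 listed nuclear genes for the respiratory chain and ATP synthase, 24 were measured, all of them for the cytochrome bc1 complex and cytochrome oxidase except the ATP synthase genes ATP5MJ and ATP5MK. The other listed genes were not analysed here. The 17 past the filter had a median of 0.06, with 14 above 0. Of all 7685 genes past the filter, 2818 were above 0. ATP5MK, a small subunit of ATP synthase, had 8.61 in the EGFP-ARHGAP4 array and 8.08 in the EGFP vector array, and COX5B of cytochrome oxidase 6.23 in the EGFP-ARHGAP4 array and 5.83 in the EGFP vector array. COX6C, also of that complex, was the lowest at -0.20, followed by UQCRB at -0.13. The 43 cytosolic ribosomal protein genes past the filter, of 83 listed and 47 measured, had a median of 0.07, with 27 above 0. RPL28 had 6.82 in the EGFP-ARHGAP4 array and 5.93 in the EGFP vector array, and RPS27L, a paralog of RPS27, 4.18 in the EGFP-ARHGAP4 array and 3.38 in the EGFP vector array. RPS23 and RPL6 were the lowest, at -0.30 and -0.25. After centring the medians were 0.16 for these respiratory chain genes and 0.17 for the cytosolic ribosome, beside -0.006 for the members. Without replicates the distance between these lists was not tested.

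**Figure D4:**
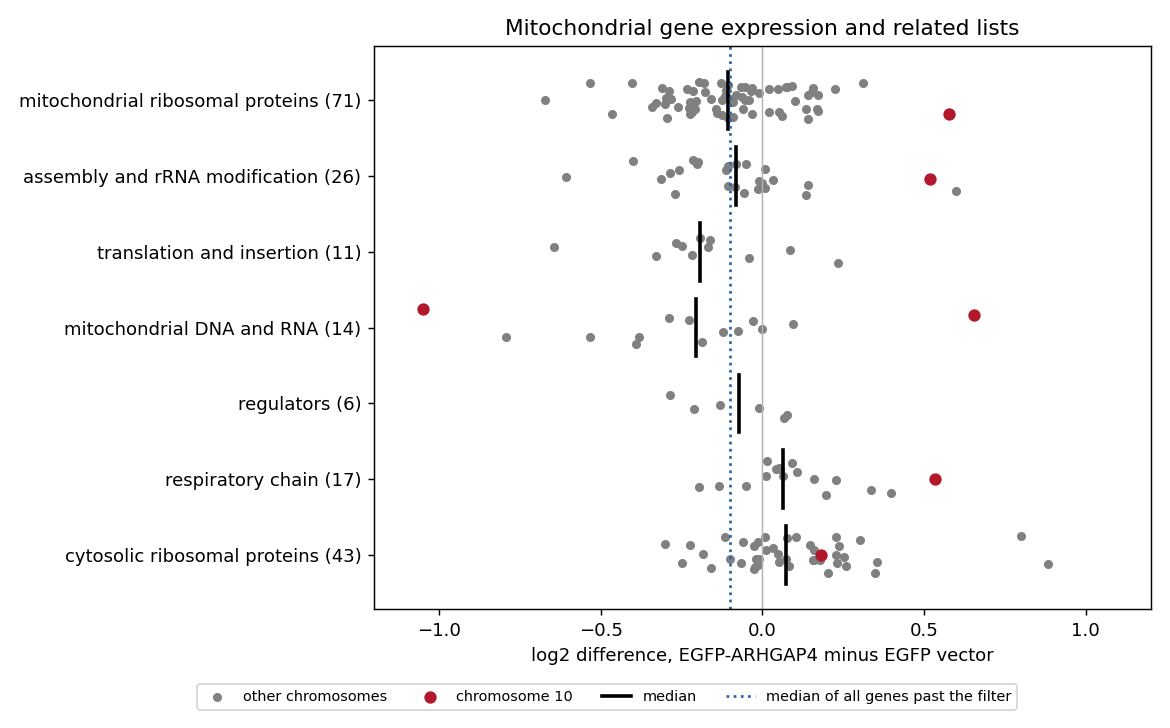
Log2 difference (EGFP-ARHGAP4 minus EGFP vector) of genes past the level filter in 7 lists, with the number of genes in brackets. Points are genes, spread vertically for visibility, black bars are medians and the dotted line is the median of all genes past the filter, -0.10. The respiratory chain list holds genes of the bc1 complex, cytochrome oxidase and ATP synthase. Genes of chromosome 10 are red, with MTPAP of the short arm at the far left.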

How the data were processed

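RNA of 2 samples of the cell line MCF-10A was measured on 1 array each. Per the labels' protocols, RNA was amplified to sense cDNA and labelled with biotin by GeneChip whole-transcript kits. The deposited table holds log2 expression values for 44629 features. How the authors summarised and normalized them was not given in the sources used here. Base 2 was inferred from the values, since the highest, 12.8, exceeds the natural log of a 16-bit reading, 11.1. The table was used as deposited. The number of arrays limits the precision.

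Gene names came from GEO's platform annotation of 2020, which gave 1 symbol to each of 15835 features and several to none. The other features are unnamed here. Values of features with 1 symbol were averaged. All 73 members matched the RefSeq gene table by Entrez identifier; it names 77 such genes, and the other 4 were not analysed here. The table served for names, chromosomes and gene order, since the array's build is not given. Promoters came from the RefSeq table of GRCh38.p14.

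Members, lists, roles, thresholds and alternatives were chosen with earlier results of these data known. The subunit, origin and site of each member come from general knowledge of ribosome structures, not from a file, and the origin of MRPS28 was corrected after results were seen. Named were the 10 lowest and 10 highest members past the level filter, the 5 with the highest value, those on chromosome 10, with several features, of the stalk or of the MRPS18 family, and the 2 lowest and 2 highest of each list of related genes. Marker genes follow no such rule and were chosen after their values were seen. Members other than these are named only with their groups. The calculations were tested on simulated data. The tools were matplotlib 3.10.9, statsmodels 0.14.6, numpy 2.4.6, Python 3.11.15 and pandas 2.3.3.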

Additional observations from a re-analysis of the deposited data

How the results depend on the processing

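No paired analysis was possible because each group has 1 array, and no value has a replicate. The median of the members past the filter, -0.11 as deposited, was -0.00913 after quantile normalization, -0.00616 after centring, 0.00099 after loess (span 0.3) and, chosen after seeing the data, 0.0296 after subtracting the median of each member's neighbours. The large subunit median was -0.00661, -0.00062 and -0.00226 and the small subunit median -0.0116, -0.0108 and 0.0136 after quantile normalization, centring and loess. Those scalings left 1 member lower by 0.5 or more, MRPL48, in place of 2, since MRPS5 came to -0.45, -0.43 and -0.40. Relative to all genes, the member median was -0.0733 without the level filter and -0.006 with it. With a background in the members' level range, added after seeing the data, it was 0.01. Without chromosome 10, 0 members were higher by 0.5, and at a difference of 1 there were 0 on either side. Signs changed for 14 of 71 members after quantile normalization or centring and 16 after loess. The highest 2 (MRPS16, MRPL43) and lowest 2 (MRPL48, MRPS5) were the same members after quantile normalization and loess. Centring cannot change the order. They were also the same with the highest feature per gene, which can move only members with several features. MRPL43 and MRPL23 lie below the level filter.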
